A study of Mus musculus with 2 samples.

Results

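The genes described here are 39 endothelial genes and vascular growth signals, chosen by name from the known biology of blood vessels. The choice was made with earlier results of these data known, so shares of members against all genes are descriptions only. Of these, 37 were detected on the arrays among 25998 detected genes, and all 39 had a matching probe. Posterior tissue of mouse embryos at 13 somites had been hybridised on 2 dual-colour oligonucleotide arrays. The mutant pool came from 7 Cdx2+/-Cdx4-/- embryos, which keep 1 intact Cdx2 copy and no intact Cdx4, and the other pool came from 7 wildtype embryos. Embryos are named by genotype only, and the labels used here give neither strain nor a treatment. The mutant RNA was labelled with Cy5 on replicate 1, and the dyes were exchanged on replicate 2. The labels give 1 pool per genotype, so the arrays count as a technical pair. Genotypes are therefore compared by size with no p-value, and each error is the SD of 2 arrays.

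Between 77.4% and 82.5% of the gene spots were well above background in each channel of each array. Cdx4, the gene missing from the mutant, had a log2 ratio of mutant over wildtype of -2.52 ± 0.12, and Cdx2 had -0.05 ± 0.09. Xist was not well above background in the mutant pool and was at least 3.95-fold lower there, while the Y-linked Ddx3y had a log2 ratio of 0.58 ± 0.16. Pools of a few embryos can differ in their share of males, and the part of this in the values below was not tested. Over all detected genes the SD between arrays was 0.19 on the log2 scale.

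Endothelial cells line blood vessels and arise in the embryo from mesoderm, including that of the posterior region and the allantois. ETS and SOXF transcription factors switch on the endothelial genes. VEGF from neighbouring tissue acts on the receptor Kdr, angiopoietins act on Tek, and Dll4 with Notch receptors sorts tip cells from stalk cells and arteries from veins. Junction proteins such as VE-cadherin and claudin-5 then seal the vessel wall.

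Most of the genes that mark endothelium were lower in the mutant pool by a modest amount, and the ligands as a group lay closer to 0. The median log2 ratio of the 37 detected members was -0.30, against 0.00 over all detected genes, with a range of -1.06 to 0.29. On both arrays 31 of the 37 lay below 0, against 24.4% of all detected genes, and 1 lay above 0 on both. A gene was counted as changed when it differed by at least 1.5-fold in the same direction on each array. By that rule Cldn5, Sox18 and Plvap fell, which is 3 of 37 members, against 0.231% of all detected genes. None of the 37 rose, against 0.212% of all genes. At 1.3-fold on each array 13 members were lower, against 0.750% of all genes. For 24 of the 37, both mutant signals were below both wildtype signals, which held for 10.8% of all genes. In pooled tissue, fewer endothelial cells and less RNA per endothelial cell cannot be told apart.

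**Figure D1:**
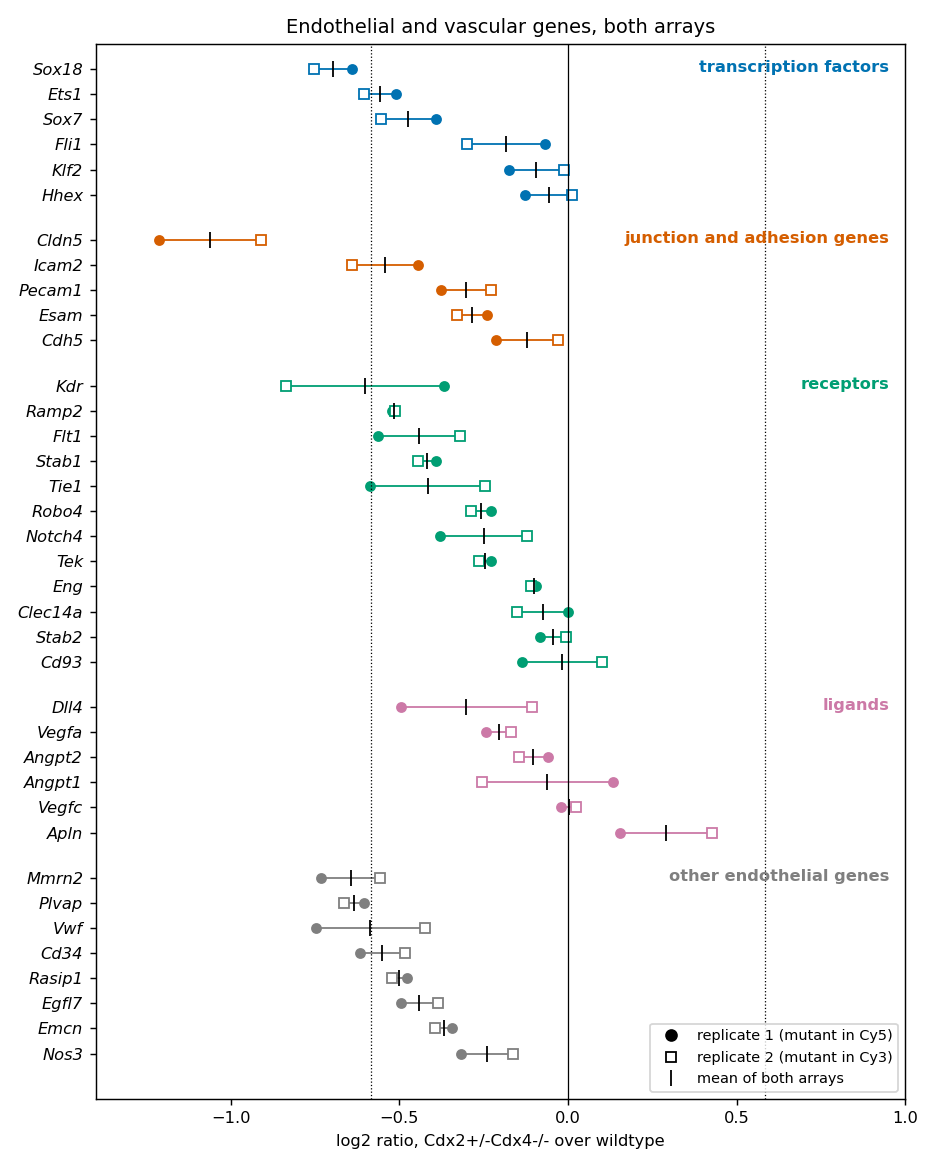
Log2 ratio of mutant over wildtype for each detected member by role, with a filled circle for replicate 1, an open square for replicate 2 and a tick for their mean. Dotted lines mark 1.5-fold in either direction. Cldn5 lies farthest to the left at -1.21 and -0.91, and Apln is the only member to the right of 0 on both arrays.

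The members were well above background in both genotypes on both arrays for all 37 detected genes, so no ratio here is a bound. Erg, an ETS factor, was not well above background in either pool on either array, and Flt4, the receptor for VEGF-C, was above it in each pool on 1 array only. Among 7 members with a mean log2 intensity below 7, the median log2 ratio was -0.10 and 4 lay below 0 on both arrays. Of all detected genes that dim, 20.6% lay below 0 on both. The other brightness classes with more than 1 member had medians from -0.60 to -0.29. The log2 ratios of the arrays had a Pearson r of 0.74 across the 37 members, which share both pools and both arrays. Across all detected genes the value was 0.068. The members were brighter, with a median log2 intensity of 8.28 against 7.25 over all detected genes. They were also chosen with earlier results known, so both correlations are descriptions only.

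**Figure D2:**
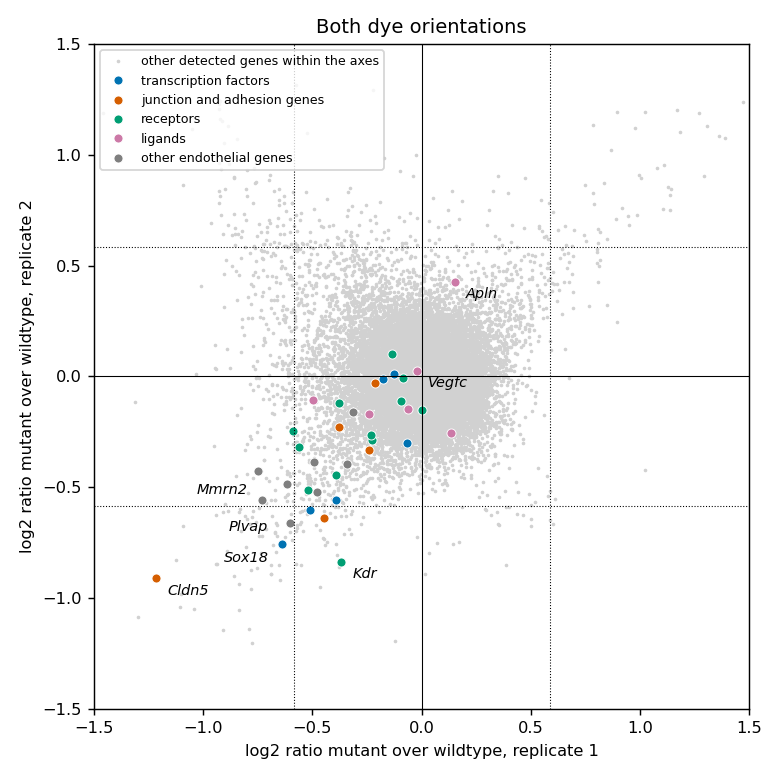
Log2 ratio of mutant over wildtype on replicate 1 against replicate 2, with the members coloured by role over the other detected genes in grey that fall within the axes. Dotted lines mark 1.5-fold. Of the 37 members, 31 lie below 0 on both axes, and Cldn5, Sox18 and Plvap lie beyond the dotted lines on both axes.

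The 250 bases before the annotated start of a gene were read for the members that the RefSeq promoter table holds, 23 of the 39 with 28 windows in GRCm38.p6. They are shown for the 5 members with the lowest ratios that have 1 window each, because these genes lay below 0 together on both arrays. Capitals mark matches to AGGAAG, a sequence with the GGAA core that ETS factors bind, on either strand. The windows are Cldn5 at chr16:18776597-18776846 (plus strand), Kdr at chr5:75978456-75978705 (minus strand), Cd34 at chr1:194938571-194938820 (plus strand), Rasip1 at chr7:45627287-45627536 (plus strand) and Flt1 at chr5:147726012-147726261 (minus strand), each written from 5′ to 3′ on the strand of the gene.
Cldn5: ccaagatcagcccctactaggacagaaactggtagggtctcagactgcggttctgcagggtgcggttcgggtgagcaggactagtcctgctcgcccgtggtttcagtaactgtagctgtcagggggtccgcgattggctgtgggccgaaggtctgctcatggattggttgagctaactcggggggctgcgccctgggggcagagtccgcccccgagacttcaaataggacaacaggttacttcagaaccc
Kdr: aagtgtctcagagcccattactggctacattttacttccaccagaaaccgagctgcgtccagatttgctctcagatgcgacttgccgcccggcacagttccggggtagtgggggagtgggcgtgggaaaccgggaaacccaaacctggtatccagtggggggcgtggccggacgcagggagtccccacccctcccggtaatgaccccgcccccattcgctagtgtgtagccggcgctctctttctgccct
Cd34: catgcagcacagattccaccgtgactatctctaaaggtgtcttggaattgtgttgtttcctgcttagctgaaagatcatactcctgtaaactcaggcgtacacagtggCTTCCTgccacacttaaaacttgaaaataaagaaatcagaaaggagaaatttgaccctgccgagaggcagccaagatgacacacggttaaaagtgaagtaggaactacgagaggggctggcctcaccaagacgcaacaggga
Rasip1: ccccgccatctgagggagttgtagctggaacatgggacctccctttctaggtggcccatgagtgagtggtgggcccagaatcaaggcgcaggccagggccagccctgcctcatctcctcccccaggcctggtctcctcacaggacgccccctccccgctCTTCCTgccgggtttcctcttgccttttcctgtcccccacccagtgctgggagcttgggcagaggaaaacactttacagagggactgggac
Flt1: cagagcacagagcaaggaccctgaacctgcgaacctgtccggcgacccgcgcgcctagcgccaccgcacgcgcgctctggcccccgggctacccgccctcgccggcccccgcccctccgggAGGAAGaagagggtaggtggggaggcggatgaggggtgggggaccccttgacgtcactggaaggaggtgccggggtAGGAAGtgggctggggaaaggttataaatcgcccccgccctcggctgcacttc

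AGGAAG or its reverse complement CTTCCT was in 15 of the 28 member windows, from 14 genes, against 29.5% of all 32851 windows in the table. Flt1 held it at 129 and 53 bases before the start, Cd34 at 142 and Rasip1 at 91. Cldn5 and Kdr held none in these windows. ACAAAG, which SOX factors bind, was in 4 of the 28 windows (Apln, Egfl7, Eng and Tek), against 16.5% of all windows. TTTATG, a sequence that CDX proteins bind, was in 2 of the 28 (Clec14a and Egfl7), against 10.8% of all. Both strands were searched, and no marked matches overlap. The windows with and without AGGAAG both include members with low ratios, and a match is a description of the letters.

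Among the transcription factors, Sox18 fell by the size rule, against 0.231% of all detected genes. The other 5 detected members did not pass it, and the median log2 ratio of the 6 was -0.33. Sox18, a SOXF factor of early vessel and lymphatic formation, had normalized signals of 288 and 266 in the mutant pool on replicates 1 and 2, against 449 and 449 in the wildtype pool. These signals are linear channel values after loess and Aquantile normalization and include the added offset of 50. The mutant signals lay below both wildtype signals, and the log2 ratios were -0.64 and -0.75 (mean -0.70 ± 0.08), which is 1.62-fold lower. Its probe lies at chr2:181359451-181359510 in the coordinates of the files, whose genome build they do not name.

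Ets1, an ETS factor of endothelium and mesenchyme, had 299 and 318 in the mutant pool and 426 and 484 in the wildtype pool. Sox7, another SOXF factor, had 212 and 210 in the mutant pool against 279 and 309 in the wildtype pool. Neither pair of pools overlapped, and the log2 ratios were -0.51 and -0.60 (mean -0.56 ± 0.07) for Ets1 and -0.39 and -0.56 (mean -0.47 ± 0.12) for Sox7. Ets1 reached 1.5-fold on replicate 2 alone and Sox7 on neither array.

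The remaining factors lay nearer to 0. Fli1, an ETS factor at the head of the blood and endothelial programme, had a log2 ratio of -0.07 on replicate 1 and -0.30 on replicate 2 (mean -0.18 ± 0.16). Klf2, a factor induced by blood flow, had -0.18 and -0.01 (mean -0.09 ± 0.11), and its dimmer probe gave 0.01 and -0.05. Hhex, a homeobox gene of endothelium and endoderm, had -0.13 and 0.01 (mean -0.06 ± 0.10). The mean ratios of Fli1, Klf2 and Hhex were smaller in size than the SD between arrays of all genes. Hhex was dim, with a mean log2 intensity of 6.88, where ratios are shrunk. By the scanner software's ratio it was -0.30 and -0.08.

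Of the 5 junction and adhesion genes, Cldn5 fell by the size rule, against 0.231% of all detected genes. The other 4 did not pass it, and the median of the 5 was -0.30. Cldn5, the main tight junction claudin of endothelium, had signals of 453 and 518 in the mutant pool, against 1051 and 974 in the wildtype pool. The pools were far apart on both arrays. The log2 ratio was -1.06 ± 0.21 (2.09-fold lower), with -1.21 on replicate 1 and -0.91 on replicate 2, so that 2-fold was reached on 1 array. Of all detected genes, 0.0231% had a lower ratio than Cldn5. Its probe lies at chr16:18555033-18555092 in the files' coordinates.

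Icam2, an adhesion molecule for leukocytes, had 287 and 236 in the mutant pool, against 391 and 368 in the wildtype pool, without overlap. Its log2 ratios were -0.45 and -0.64 (mean -0.54 ± 0.14). Esam, a tight junction adhesion molecule, had 452 and 277 in the mutant pool, against 534 and 348 in the wildtype pool. Its pools overlapped between arrays, and the ratio was lower within each array, at -0.24 and -0.33 (mean -0.29 ± 0.06). Pecam1, an adhesion molecule at endothelial cell contacts, had log2 ratios of -0.38 and -0.23 (mean -0.30 ± 0.11). Cdh5, which encodes VE-cadherin, had -0.21 and -0.03 (mean -0.12 ± 0.13). Its signals of 97.9 and 122 in the mutant pool, against 114 and 125 in the wildtype pool, overlapped. Pecam1 and Cdh5 thus lay closer to 0 than Cldn5, and that difference was not tested. They were dim, with mean log2 intensities of 6.85 and 6.83, where ratios are shrunk, against 9.45 for Cldn5. With an offset of 16 the mean log2 ratios were -0.44 for Pecam1, -0.18 for Cdh5 and -1.12 for Cldn5. By the scanner software's ratio they were -0.72, -0.21 and -1.17. The part of dimness in the difference was not tested either.

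**Figure D3:**
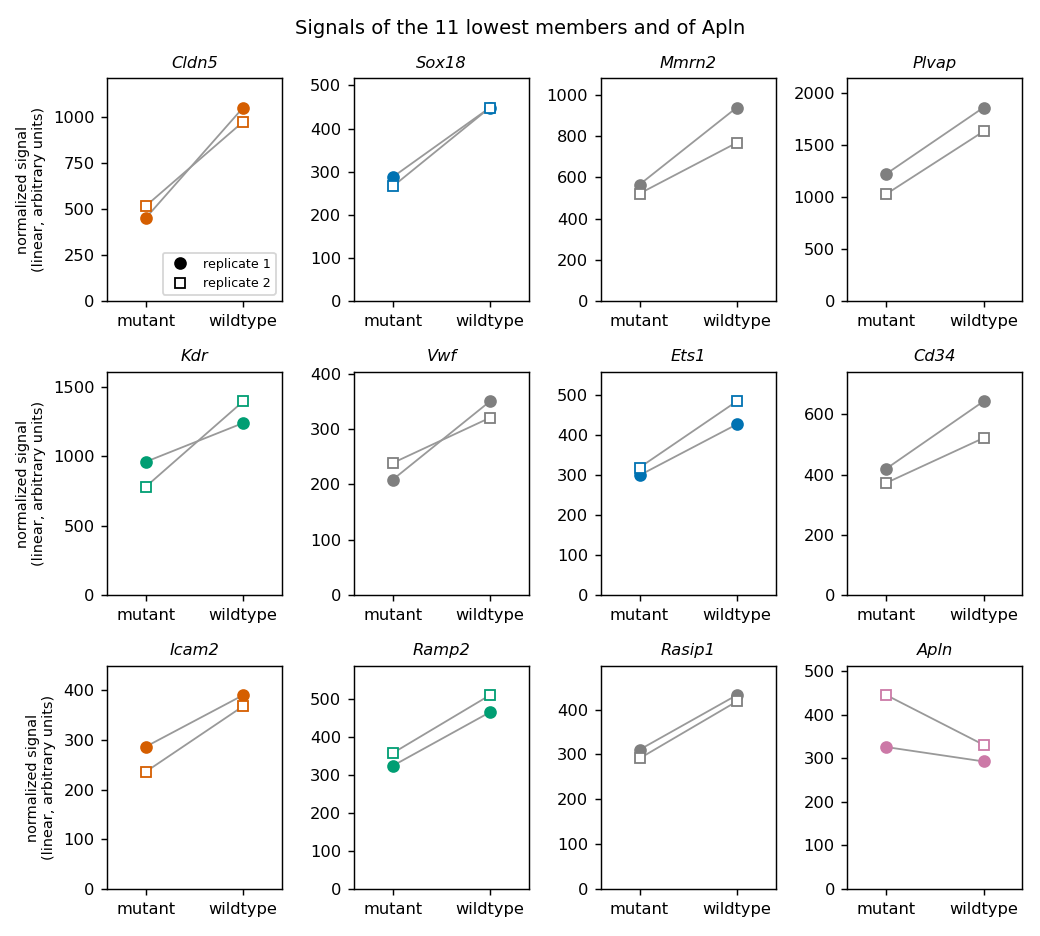
Normalized signals in the mutant and the wildtype pool for the 11 members with the lowest mean ratio and for Apln, with a filled circle for replicate 1 and an open square for replicate 2, joined within an array. Each axis starts at 0 and has its own scale. In the 11 the mutant points lie below both wildtype points, and in Apln the mutant points lie higher within each array.

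None of the 12 detected receptors passed the size rule, against 0.231% of all detected genes lower and 0.212% higher. The receptors' median was -0.25. On both arrays 10 of them lay below 0, against 24.4% of all detected genes. Kdr, the main VEGF receptor of endothelium, had 961 and 782 in the mutant pool, against 1240 and 1397 in the wildtype pool. The pools did not overlap, but the arrays disagreed on the size, with log2 ratios of -0.37 and -0.84 (mean -0.60 ± 0.33). Its probe lies at chr5:74673629-74673688 in the files' coordinates. Flt1, the VEGF receptor that also serves as a decoy, had 438 and 483 in the mutant pool, against 647 and 603 in the wildtype pool, with log2 ratios of -0.56 and -0.32 (mean -0.44 ± 0.17). The pools did not overlap for Flt1 either.

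Ramp2, the partner of the adrenomedullin receptor, had 324 and 357 in the mutant pool, against 465 and 510 in the wildtype pool. Its arrays gave nearly the same log2 ratio, -0.52 and -0.51 (mean -0.52 ± 0.01). A second probe under the name Ramp2, which the files place on chromosome 19 and not on chromosome 11, gave -0.22 and 0.21 and was not used. Tie1, an orphan receptor of the angiopoietin system, had -0.59 on replicate 1 and -0.25 on replicate 2 (mean -0.42 ± 0.24). It was dim, at a mean log2 intensity of 6.73, and was -1.20 and -0.31 by the scanner software's ratio. Tek, the angiopoietin receptor, had -0.23 and -0.26 (mean -0.25 ± 0.02). Its signals of 257 and 219 in the mutant pool, against 302 and 262 in the wildtype pool, did not overlap.

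Stab1, a scavenger receptor, had -0.39 and -0.44 (mean -0.42 ± 0.04), and its relative Stab2 had -0.08 and -0.01 (mean -0.05 ± 0.06). Robo4, a roundabout receptor of endothelium, had -0.23 and -0.29 (mean -0.26 ± 0.04). Notch4, the endothelial Notch receptor, had -0.38 and -0.12 (mean -0.25 ± 0.18), and its dimmer probe gave 0.08 and 0.17, so its direction rests on the probe. Eng, a coreceptor for TGF-beta ligands, had -0.10 and -0.11 (mean -0.10 ± 0.01). The C-type lectin Clec14a at 0.00 and -0.15 (mean -0.07 ± 0.11) and its relative Cd93 at -0.14 and 0.10 (mean -0.02 ± 0.17) showed no direction shared by both arrays. Eng, Clec14a and Cd93 were dim, with mean log2 intensities of 6.72, 6.99 and 6.59, where ratios are shrunk. By the scanner software's ratio Clec14a was -0.11 and -0.29, Cd93 was -0.21 and 0.00, and Eng was -0.13 and 0.00.

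No ligand passed the rule, against 0.231% of all detected genes lower and 0.212% higher. The ligands' median was -0.08. On both arrays 3 of 6 lay below 0, against 24.4% of all detected genes. The difference between ligands and the other groups was not tested. Vegfa, the principal vascular growth factor, had signals of 683 and 704 in the mutant pool, against 808 and 792 in the wildtype pool. These did not overlap, and the log2 ratios were -0.24 and -0.17 (mean -0.21 ± 0.05). Vegfc, the lymphatic growth factor, had 1179 and 1290 in the mutant pool, against 1197 and 1268 in the wildtype pool. Its log2 ratios were -0.02 and 0.02 (mean 0.00 ± 0.03).

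Dll4, the Notch ligand of tip cells and arteries, had log2 ratios of -0.50 and -0.11 (mean -0.30 ± 0.28). Angpt2, the angiopoietin of remodelling vessels, had -0.06 and -0.15 (mean -0.10 ± 0.06). Angpt1, the stabilising angiopoietin made by perivascular cells, had 0.13 on replicate 1 and -0.26 on replicate 2 (mean -0.06 ± 0.27), opposite directions. Apln, the peptide ligand of the apelin receptor, had 326 and 445 in the mutant pool, against 293 and 331 in the wildtype pool. It was the only member above 0 on both arrays, at 0.15 and 0.43 (mean 0.29 ± 0.19). Its pools overlapped between arrays, the ratio did not pass the rule, and it was -0.06 on replicate 2 with median centring. Apln lies on the X chromosome.

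Each of the other 8 endothelial genes had a negative ratio on both arrays, against 24.4% of all detected genes. Their median was -0.53, and 1 fell by the rule, against 0.231% of all detected genes. Plvap, which forms the diaphragms of fenestrae and caveolae, had 1227 and 1033 in the mutant pool, against 1865 and 1635 in the wildtype pool. It fell 1.55-fold, with log2 ratios of -0.60 and -0.66 (mean -0.63 ± 0.04) close to the 1.5-fold limit. Its probe lies at chr8:70544316-70544375 in the files' coordinates. Mmrn2, a matrix protein of the vessel wall, had 565 and 521 in the mutant pool, against 937 and 767 in the wildtype pool. Its mean log2 ratio of -0.64 ± 0.12 was close to that of Plvap, but Mmrn2 missed 1.5-fold on replicate 2, with -0.73 and -0.56. Vwf, the clotting factor stored in endothelium, had 209 and 239 in the mutant pool, against 350 and 320 in the wildtype pool, with log2 ratios of -0.75 and -0.43 (mean -0.59 ± 0.23).

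Cd34, a sialomucin of endothelial and blood progenitors, had 420 and 373 in the mutant pool, against 644 and 522 in the wildtype pool, with log2 ratios of -0.62 and -0.48 (mean -0.55 ± 0.09). Rasip1, a regulator of lumen formation, had 311 and 291 in the mutant pool, against 433 and 418 in the wildtype pool, with log2 ratios of -0.48 and -0.52 (mean -0.50 ± 0.03). Egfl7, a secreted endothelial protein, had 5496 and 5116 in the mutant pool, against 7747 and 6687 in the wildtype pool, with log2 ratios of -0.50 and -0.39 (mean -0.44 ± 0.08). The pools did not overlap for any of these 3 genes. Emcn, the sialomucin endomucin, had -0.34 and -0.39 (mean -0.37 ± 0.04), and Nos3, the nitric oxide synthase of endothelium, had -0.32 and -0.16 (mean -0.24 ± 0.11).

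The calls near the threshold depended on processing. Without background subtraction and with median centring in place of loess, 1 member, Cldn5, remained lower by the rule, and Sox18 and Plvap did not. All detected genes then had 38 and 16 lower of 25998, against 60 as reported. The mean log2 ratio stayed near its reported size, at -0.62 without subtraction and -0.75 with median centring for Sox18, and at -0.61 and -0.71 for Plvap. With median centring 22 of the 37 were below 0 on both arrays, against 8.52% of all detected genes, whose medians were then 0.15 on replicate 1 and -0.19 on replicate 2. The members' median was -0.35 there.

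**Figure D4:**
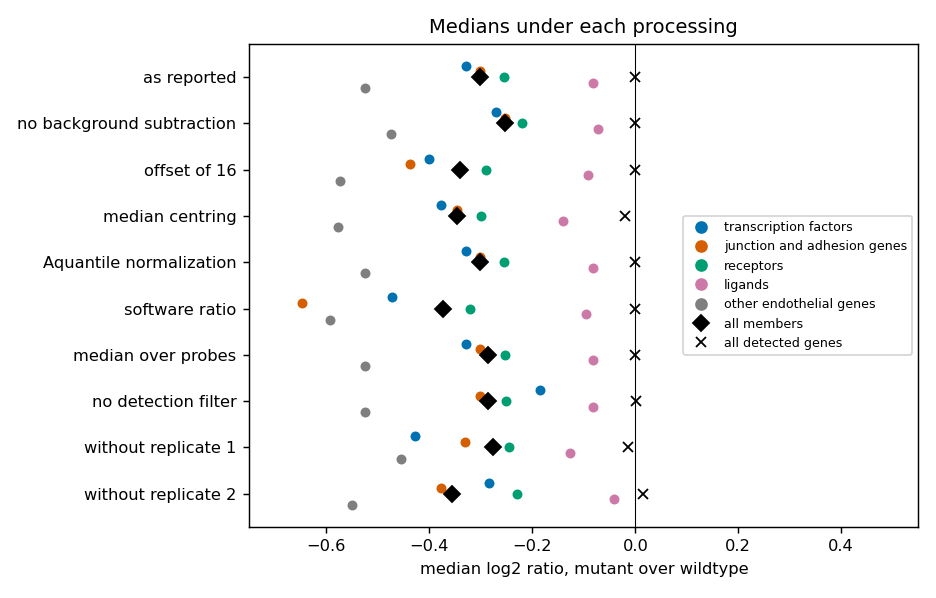
Median log2 ratio of mutant over wildtype for all members (diamonds), each role (circles) and all detected genes (crosses) under the reported processing and each alternative. The members' median runs from -0.37 to -0.25 and each role's median stays below 0, while the crosses stay close to 0.

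Other genes of the vascular pathways were read from a list of 51, of which 47 were detected. Lyl1, a basic helix-loop-helix factor of blood and endothelial progenitors, fell. It had 368 and 335 in the mutant pool, against 613 and 582 in the wildtype pool (log2 ratio -0.77 ± 0.04), without overlap. The other 46 did not pass the rule and none rose. By that rule 0.231% of all detected genes were lower and 0.212% higher. The list's median was -0.11, with 26 of 47 genes below 0 and 6 above it on each array. Of 25998 detected genes, 6343 lay below 0 and 6064 above it on each array. Among the lowest were Thsd1 (-0.58 ± 0.16), an endothelial adhesion regulator, and Etv2 (-0.52 ± 0.13), the ETS factor that starts the endothelial programme. Tal1, the partner factor of the blood and endothelial progenitor, had -0.49 ± 0.20. At the other end, the artery ligand Efnb2 had 0.55 ± 0.00 and the semaphorin Sema3e had 0.55 ± 0.18. Also above 0 on both arrays were Notch1 (0.42 ± 0.03), Prox1 (0.32 ± 0.00), Cxcr4 (0.26 ± 0.16) and Jag1 (0.18 ± 0.04). Efnb2 is also expressed outside endothelium, in somites among other places. The cells behind the ratios of this list, low or high, were not tested.

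Hypoxia raises Vegfa in many tissues, and 12 of 14 listed hypoxia targets were detected. Slc2a1, a glucose transporter gene, rose (log2 ratio 0.93 ± 0.25), and 11 did not pass, with Ndrg1 at 0.34 ± 0.05 and a list median of 0.10. By the rule 0.212% of all detected genes rose and 0.231% fell. On both arrays 7 of the 12 lay above 0 and 1 below it, against 6064 and 6343 of 25998 detected genes. Vegfa lay below 0 on both arrays, and any link between hypoxia and these values was not tested.

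Markers of neighbouring cell types gave these values beside the endothelial ones. For each count by the rule in these lists, the share of all detected genes was 0.231% lower and 0.212% higher. In the primitive erythroid list, 11 of 12 were detected and none passed. Their median was -0.06, and the summed signal was 81688 and 75050 in the mutant pool, against 80220 and 84922 in the wildtype pool. Globins make up most of that sum. The 8 other erythroid genes, summed apart after the values were seen, had 2214 and 2311 in the mutant pool, against 2251 and 2630 in the wildtype pool. The summed signal of the 37 members was 17540 and 17100 in the mutant pool, against 23728 and 22303 in the wildtype pool. The largest erythroid ratio was that of Alas2, the haem synthesis enzyme of red cells (-0.23 ± 0.09), and the next was that of Hbb-y, an embryonic globin. Hbb-y had -0.18 ± 0.21, but its spot was saturated in the wildtype pool on 1 array, so this ratio may be off.

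In the megakaryocyte list 5 of 6 were detected. Itga2b, an integrin of platelets and early blood progenitors, fell (-0.73 ± 0.09), Pf4 had -0.38 ± 0.01, and the list median was -0.16. Gp1bb had -0.58 and 0.25, Gp6 -0.11 and 0.01, and Gp9 0.02 and -0.09, opposite directions on the arrays. Pf4, Gp6 and Gp9 were dim, with mean log2 intensities of 6.49, 6.28 and 6.71, where ratios are shrunk. The summed signal of the list was 714 and 728 in the mutant pool, against 996 and 968 in the wildtype pool. Itga2b alone had 329 and 320, against 521 and 554. Macrophage and leukocyte genes had 5 of 9 detected, none past the rule, a median of 0.01 and sums of 626 and 588 in the mutant pool, against 622 and 577 in the wildtype pool. Cd68, a macrophage glycoprotein, had 0.08 ± 0.01, Cx3cr1, a chemokine receptor of macrophages, had -0.05 ± 0.02, and Ptprc, the pan-leukocyte marker, was not detected. Most detected genes of this list were dim, with mean log2 intensities of 6.72 for Cd68 and 6.55 for Cx3cr1, where ratios are shrunk.

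All 8 mural and smooth muscle genes were detected. Cnn1, a smooth muscle calponin, fell (-0.69 ± 0.02), and Tagln had -0.70 and -0.07. Their median was -0.21, and their sums were 5145 and 5862 in the mutant pool, against 6598 and 6409 in the wildtype pool. All 8 lateral plate and allantois genes were detected, and Wnt2, a ligand of the allantois and its vessels, fell (-0.81 ± 0.08). The others did not pass, with Hand2 at -0.39 ± 0.08 and a list median of -0.12. Bmp4, the brightest of the list, had 0.12 and -0.34, Hand1 had 0.21 and -0.05, and Prrx1 had 0.02 and 0.06. The sums were 6932 and 5849 in the mutant pool, against 7600 and 7840 in the wildtype pool. Wnt2 alone had 1282 and 1046, against 2163 and 1906. Of 6 endocardium and heart genes, 4 were detected, none passed and the median was 0.00, with Myl7 at 0.11 ± 0.02 and Nkx2-5 at -0.09 ± 0.08. Their sums were 794 and 857 in the mutant pool, against 795 and 921 in the wildtype pool. Myl7, Nfatc1 and Tnnt2 were dim, with mean log2 intensities of 6.23, 6.58 and 6.69, where ratios are shrunk. The megakaryocyte and mural lists and the lateral plate and allantois list were thus also lower in sum on both arrays. Single genes weigh on these sums, Itga2b on the megakaryocyte one and Wnt2 on the lateral plate and allantois one. On replicate 1 Bmp4, the brightest gene of the latter list, was higher in the mutant pool. The sums therefore do not speak for each list as a whole. The heart list and the 8 erythroid genes other than globins were nearly equal on replicate 1, with mutant over wildtype at 0.9987 and 0.9834. On replicate 2 both were lower, at 0.9301 and 0.8787. The part of any of these lists in the endothelial values was not tested.

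**Figure D5:**
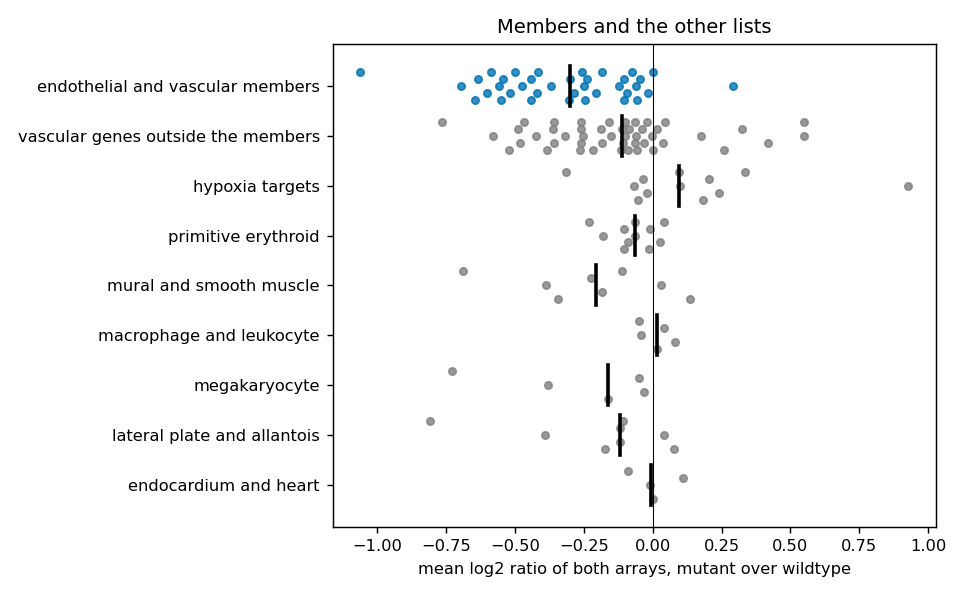
Mean log2 ratio of mutant over wildtype for each detected gene of the members and of the other lists, with a black bar at each list's median. The members' median of -0.30 is the lowest of the lists shown, the erythroid, leukocyte and heart lists lie near 0, and single genes of the mural, megakaryocyte and lateral plate lists lie near -0.7 or below. Most leukocyte and heart genes shown are dim, and so are Pf4, Gp6 and Gp9 of the megakaryocyte list, where ratios are shrunk.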

How the data were processed

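Posterior tissue of 7 mutant and of 7 wildtype embryos was pooled, per the labels. Spot brightness was deposited as uncorrected intensity (mean signal and median local background). A second deposited column, log10 of Cy5 over Cy3, had been spatially detrended and LOWESS-normalized by the scanner software, per the file headers. The headers name Agilent Feature Extraction 7.5.1 and the submitters' processing notes 9.5.3.

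Signals were background-corrected with normexp (offset 50) in limma 3.58.1 (R 4.3.3) on all 43430 spots, which shrinks the ratios of dim genes. Loess was run within each array with control spots at weight 0, and ratios were turned to mutant over wildtype by the labelled dyes. Spots flagged as non-uniform were left out (205 and 90 of 41174 gene spots). A gene was detected when a genotype was well above background on both arrays, and its brightest detected probe stood for it. Symbols came from the accessions, 19780 probes, or else from a current symbol or a synonym through a RefSeq table of GRCm38.p6. The steps were tested on simulated data. With 1 pool per genotype no test was made, and having 2 arrays limits the precision.

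The members, lists and rules were chosen with earlier results of these data known. Every detected member is named, and so are genes of the other lists past the rule or, in lists with none, the 2 with the largest absolute ratio. Thsd1, Etv2, Tal1, Efnb2, Sema3e, Ndrg1, Pf4, Tagln, Hand2 and Ptprc were added after their values were seen. So were Gp1bb, Gp6, Gp9, Bmp4, Hand1, Prrx1, Notch1, Prox1, Cxcr4 and Jag1.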

Additional observations from a re-analysis of the deposited data

How the results depend on the processing

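No paired analysis was possible because each ratio already pairs the genotypes within an array and a single pool of each leaves no biological replicates to block on. The count of members lower by 1.5-fold on each array, 3 as reported, was 1 when background was not subtracted, 1 under median centring, 6 by the software's ratio, 13 at 1.3-fold and 0 at 2-fold. Single arrays, which leave dye effects in, gave from 6 to 7 of 38. The background moved too: 60 of 25998 detected genes were lower as reported, 189 of 25998 by the software's ratio, 127 of 27734 on replicate 2 alone and 466 of 28198 on replicate 1 alone. The junction and adhesion median, -0.30 as reported, was -0.65 by the software's ratio. Over the alternatives run, the median ranged from -0.37 to -0.25 for all members, from -0.47 to -0.18 for transcription factors, from -0.32 to -0.22 for receptors and from -0.14 to -0.04 for ligands. Below 0 on both arrays were 22 of 37 members under median centring, against 8.52% of all genes, and from 30 to 32 under the other alternatives that use both arrays, against 22.6% to 24.5%. On either single array 34 of 38 lay below 0, against 54.1% of all genes on replicate 2 and 46.0% on replicate 1. Of 333 values of single members, 11 moved by more than the SD between arrays. They belong to Kdr, Dll4 and Angpt1 on single arrays, to Tie1, Pecam1 and Emcn by the software's ratio, to Tie1 with an offset of 16 (-0.61) and to Ramp2 with the median over probes (-0.26). Angpt1, which passed no rule, was 0.13 on replicate 1 alone and -0.26 on replicate 2 alone. The cause was not tested. Signal over background left Erg and Flt4 without a value.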
